A study of Mus musculus with 16 samples.

Results

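The 34 genes described here encode the proteins that carry glucose into heart cells, break it down to pyruvate, turn pyruvate into lactate or acetyl-CoA, and build or degrade glycogen. They were taken from a fixed list of gene symbols and make up 34 of the 18346 genes in the deposited tables; 33 of them passed the filter on low counts, as did 13373 genes in all. Transcripts were measured by bulk RNA sequencing in whole dissected hearts from 16 mice, with 4 hearts, described as independent biological replicates, in each of 4 groups. The groups were wild-type (WT) mice, described as C57BL/6J, and mice with a systemic Armh4 knockout (KO), each killed at 8 weeks (young) or at 25 months (aged). All were kept on a normal diet and had no other treatment. The strain background of the KO mice, the way the allele was made and the sex of the animals are not given in the sources used here. Hearts are named by group and animal number, such as WT_Aged_1.

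Glycolysis splits glucose into pyruvate in the cytosol, and its committed step is phosphofructokinase, which is activated by fructose 2,6-bisphosphate. Pyruvate is then reduced to lactate by lactate dehydrogenase or enters mitochondria and is oxidised by the pyruvate dehydrogenase complex, which the PDK kinases switch off. The adult heart draws most of its energy from fatty acids and uses glucose, lactate and its own glycogen store as further fuels. Many of the enzymes exist as a muscle form and a broadly expressed form encoded by separate genes.

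Total counts were 11456503 to 13298660 per heart, and the 34 genes together held 1.99% to 2.24% of them. Armh4, the targeted gene, had a level of 15.5 ± 2.49 CPM in WT hearts at 8 weeks, 18.5 ± 1.94 at 25 months, and 0.374 ± 0.198 and 1.14 ± 0.368 CPM in KO hearts at the same ages (SD, n = 4; CPM is the count scaled to a library of fixed size after TMM normalisation). The summed level of 10 cardiomyocyte markers was 86295 to 96315 CPM in young WT, 71051 to 85321 CPM in aged WT, 83250 to 98483 CPM in young KO and 71579 to 80729 CPM in aged KO hearts, and no marker of the list was at 0 in any whole group. In whole hearts, fewer cells of a type and less RNA per cell cannot be told apart. The 13 macrophage markers summed to 266 to 380 CPM in young WT, 799 to 1228 CPM in aged WT, 316 to 396 CPM in young KO and 600 to 685 CPM in aged KO hearts. The 9 erythroid markers summed to 529 to 718, 1024 to 2221, 619 to 1080 and 901 to 1844 CPM in the same order. The 12 skeletal muscle markers in the files summed to 2576 to 3089, 1843 to 2325, 2482 to 3067 and 1874 to 2284 CPM in the same order, most of it from Ckm, which the heart also expresses. Of the 6 tested, 2 fell with age in WT hearts (33.3%, against 9.93% of all tested genes). These were the skeletal actin Acta1 (log2 change -2.42 ± 0.43, adjusted p = 0.00163) and the calsequestrin Casq1 (-2.72 ± 0.46, adjusted p = 0.000809). In KO hearts 0 of 6 were called by edgeR, with 3 at an unadjusted p under 0.05, and DESeq2 called 1, Acta1. The fast myosins Myh1 and Myh2 reached at most 0.2485 CPM in any heart, and Myh1 was at 0 in all aged WT and all young KO hearts. With age 2 of the 10 cardiomyocyte markers fell in WT hearts (20%), where 9.93% of all tested genes fell. In KO hearts 1 fell (10%, against 2.60%) by edgeR, and DESeq2 called 2. In each genotype 1 of the 10 log2 changes was above 0, and the medians were -0.175 in WT and -0.258 in KO hearts. The part of the cardiomyocyte and skeletal muscle markers in the changes of the muscle enzyme forms below was not tested.

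The genes spanned a wide range of levels. On the FPKM scale (fragments scaled by gene length and library size, as deposited), which allows genes to be set side by side, aldolase Aldoa was the most abundant at 2303.1 ± 205.4 FPKM, followed by the heart-type lactate dehydrogenase Ldhb at 1957.5 ± 119.6 and the muscle enolase Eno3 at 1130.6 ± 160.0 (mean ± SD over 16 hearts). Pyruvate kinase Pkm at 766.0 ± 33.6, the muscle phosphoglycerate mutase Pgam2 at 744.7 ± 94.98 and the pyruvate dehydrogenase subunit Pdhb at 713.3 ± 44.5 FPKM had overlapping ranges. At the low end stood the regulators Pfkfb1 at 12.6 ± 6.22 and Pfkfb3 at 5.97 ± 2.59 FPKM and the glucose transporter Slc2a1 at 9.60 ± 1.76 FPKM. Aldoc, the brain-type aldolase, averaged 0.0825 FPKM, was at 0 in some hearts of 3 of the groups, and was not tested. The insulin-responsive glucose transporter Slc2a4, at 204.3 ± 12.8 FPKM, was far above Slc2a1.

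**Figure D1:**
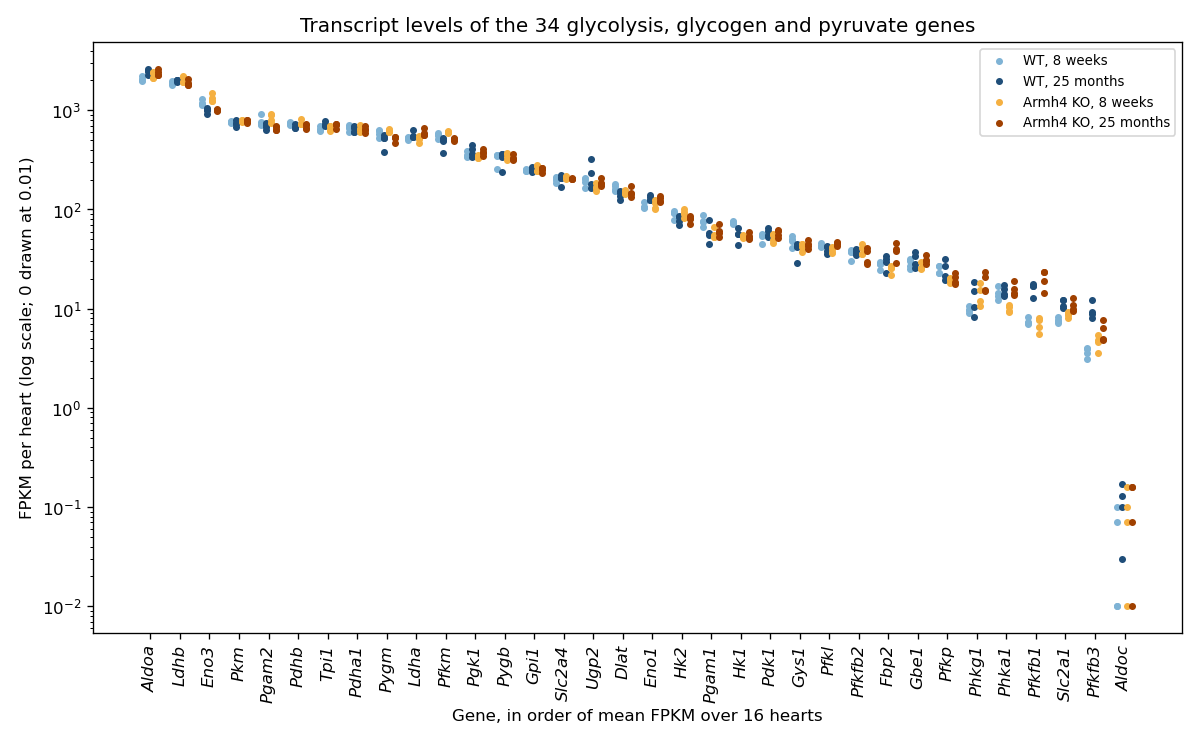
FPKM of each of the 34 genes (y axis, log scale, with 0 drawn at 0.01) in order of mean level (x axis), with 1 point per heart coloured by group. Levels run from 2303.1 FPKM for Aldoa to 0.0825 FPKM for Aldoc, and the groups of most genes overlap. Pfkfb1, Slc2a1 and Eno3 separate by age in both genotypes. Aged WT hearts lie above all others for Pfkfb3, young WT hearts above all others for Hk1, and young KO hearts below all others for Phka1.

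With age, the 33 tested genes did not move as a block. In WT hearts 8 of 33 (24.2%) changed, 3 up and 5 down, where 21.7% of all tested genes changed, 11.8% up and 9.93% down; the share among these genes was close to that background. The median log2 fold change of the 33 genes was -0.026, against -0.011 over all tested genes. In KO hearts 5 of 33 (15.2%) changed, 3 up and 2 down, against 7.63% of all tested genes, 5.03% up and 2.60% down. Their median was -0.012, against -0.009 over all tested genes. The ageing comparisons in WT and in KO share no hearts, and the log2 changes of 29 of the 33 genes had the same sign in both (87.9%, against 70.6% of all tested genes). The Pearson correlation of the WT and KO log2 changes was 0.67 for the 33 genes and 0.67 for all tested genes (Spearman 0.67 against 0.57). All tested genes were not matched to the 33 on transcript level. Eno3 fell and Pfkfb1 rose in both genotypes. In each genotype 15 of the 33 log2 changes were above 0. Scaling by library size alone, without TMM, gave 5 up and 4 down among the 33 genes in WT hearts, while DESeq2 gave 3 up and 9 down in WT and 3 up and 5 down in KO hearts, among 3127 and 1230 calls over all genes. Library size scaling also moved the share of rises among all called genes from 54.3% to 71.6% in WT and from 65.9% to 83.2% in KO ageing.

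**Figure D2:**
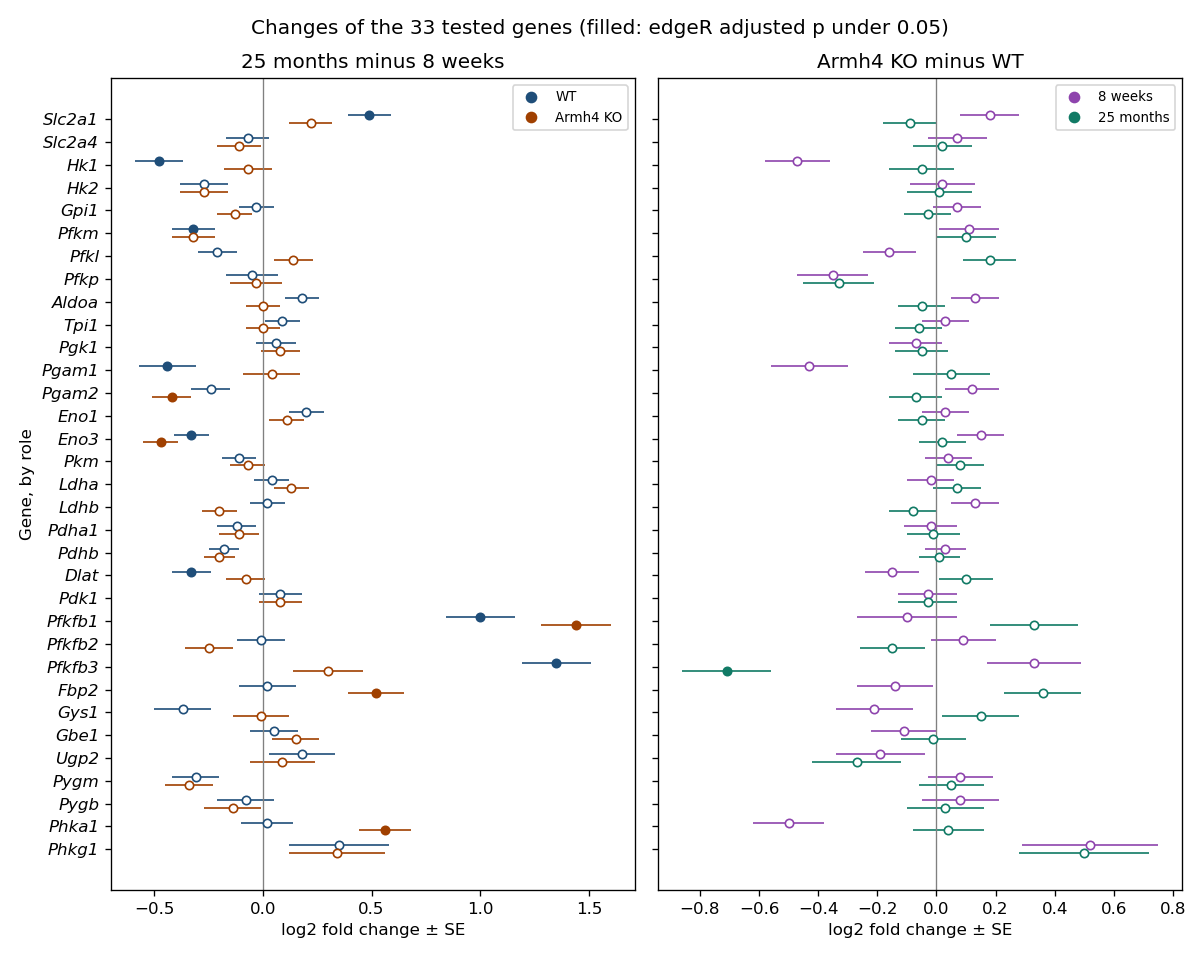
Log2 fold change ± SE (x axis) of each of the 33 tested genes, ordered by role (y axis), for ageing within each genotype (left) and for KO minus WT at each age (right); filled points passed an edgeR adjusted p of 0.05. Pfkfb1 in both genotypes and Pfkfb3 in WT hearts lie farthest to the right on the left panel, and Pfkfb3 in aged hearts is the only filled point on the right panel.

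Among the 33 genes the largest changes with age were those of Pfkfb3 and Pfkfb1 in WT hearts and of Pfkfb1 in KO hearts, both regulators of fructose 2,6-bisphosphate. PFKFB enzymes make and degrade this activator of phosphofructokinase; Pfkfb2 encodes the heart form, Pfkfb1 the liver and muscle form and Pfkfb3 an inducible form with high kinase activity. The promoter windows of Pfkfb3 are printed because, among the 33 tested genes, this gene gave the only called difference between the genotypes. RefSeq lists them for GRCm38.p6, from 250 bases before to 50 bases after each of its 2 listed starts, at chr2:11553880-11554179 and chr2:11502041-11502340, both on the minus strand. Capitals mark ACGTG, the core of the hypoxia response element, searched on both strands; CACGTG reads as ACGTG on each strand and counts at 2 positions.
Pfkfb3 start 1: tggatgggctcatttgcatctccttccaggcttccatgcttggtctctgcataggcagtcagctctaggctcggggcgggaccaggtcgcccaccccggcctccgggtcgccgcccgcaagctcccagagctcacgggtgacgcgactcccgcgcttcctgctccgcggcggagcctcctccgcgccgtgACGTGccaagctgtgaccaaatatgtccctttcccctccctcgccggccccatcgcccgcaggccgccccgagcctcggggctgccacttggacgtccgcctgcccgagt
Pfkfb3 start 2: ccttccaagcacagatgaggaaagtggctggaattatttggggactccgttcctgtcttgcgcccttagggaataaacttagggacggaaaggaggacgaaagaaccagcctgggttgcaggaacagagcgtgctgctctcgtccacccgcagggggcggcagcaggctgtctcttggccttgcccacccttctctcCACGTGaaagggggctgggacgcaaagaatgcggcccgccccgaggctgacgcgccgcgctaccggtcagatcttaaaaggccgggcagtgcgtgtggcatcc
The core occurred in 21 of the 52 promoter windows listed for these genes (40.4%), which covered 33 of the 34 genes (Slc2a4 is the other), and in 19.6% of all 32851 windows of the same length. Some of these windows overlap because they come from nearby starts of the same gene, and windows were not matched on base content. MEF2-type letters occurred in 3.85% of the 52 windows and 3.69% of all, and estrogen-related receptor-type letters in 1.92% and 1.28%. Interferon gamma-activated-type letters occurred in 3.85% and 8.30%, and interferon-stimulated response-type letters in 0% and 3.44%. A match describes letters, not a bound site.

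Pfkfb3 stood at 15.8, 15, 14.2 and 17.6 CPM in the young WT hearts WT_Young_29, WT_Young_34, WT_Young_39 and WT_Young_42. In WT_Aged_1, WT_Aged_4, WT_Aged_5 and WT_Aged_12 it stood at 35.7, 50.5, 39.9 and 33.4 CPM, so every aged WT heart was above every young one (the order of hearts is the same for all genes below). In KO_Young_27, KO_Young_31, KO_Young_38 and KO_Young_53 it stood at 19.4, 22.7, 21.0 and 15.7 CPM and in KO_Aged_114, KO_Aged_115, KO_Aged_122 and KO_Aged_125 at 20.1, 25.5, 19.6 and 32.1 CPM. The KO ages overlapped, and all aged KO hearts lay below all aged WT hearts. In WT hearts Pfkfb3 rose with age by 1.35 ± 0.16 on the log2 scale (SE; adjusted p = 7.85e-06); in KO hearts its log2 change was 0.30 ± 0.16 (adjusted p = 0.28). The difference between these changes, -1.04 ± 0.22, passed (adjusted p = 0.0438), as 0.464% of all tested genes did and 0.336% in that direction. In aged hearts Pfkfb3 was lower in KO than in WT by a log2 change of -0.71 ± 0.15 (adjusted p = 0.0299), the only called gene of the 33 (3.03%), where 0.875% of all tested genes were called and 0.710% were lower. In young hearts the value was 0.33 ± 0.16 (adjusted p = 0.473). The genotype calls were close to the threshold. That in aged hearts was lost without WT_Aged_4 (adjusted p = 0.0727), WT_Aged_5 (0.0638), KO_Aged_114 (0.083), KO_Aged_115 (0.0889) or KO_Aged_122 (0.148), and in a fit of the 8 aged libraries alone (0.182). The difference between the ageing changes was lost without any 1 of the 4 young WT hearts, WT_Aged_4, WT_Aged_5, KO_Young_27, KO_Young_31, KO_Young_38, KO_Aged_114, KO_Aged_115 or KO_Aged_122, with adjusted p up to 0.111 (without WT_Young_39). Of the macrophage markers 13 of 13 rose with age in WT hearts and 10 of 13 in KO hearts, where 11.8% and 5.03% of all tested genes rose. In aged hearts 1 of 13 was lower in KO than in WT, against 0.710% of all tested genes. There 10 of 13 had an unadjusted p under 0.05 and 13 of 13 log2 changes were below 0 (DESeq2 called 6). Of the 5 tested neutrophil markers 4 rose with age in WT and 2 in KO hearts, and 2 were lower in aged KO than in aged WT hearts, with a median log2 difference of -1.254 over the 5. Of the 3 tested T cell markers 2 rose in WT hearts and 0 were called with age in KO hearts. In aged hearts 1, Cd8a, was lower in KO than in WT (-2.43 ± 0.48, adjusted p = 0.0169). Of the 6 tested atrial markers 0 were called between aged genotypes by edgeR, with 5 at an unadjusted p under 0.05. DESeq2 called 3, all higher in KO. The 6 log2 differences (KO minus WT) were all above 0 at both ages, with a median of 2.941 in aged and 2.049 in young hearts. In young hearts 1 had an unadjusted edgeR p under 0.05, and 0 were called by edgeR or DESeq2. The part of these markers in the Pfkfb3 result was not tested.

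Pfkfb1 rose with age in both genotypes. Its levels were 11.1, 11.3, 12.3 and 13.4 CPM in young WT hearts and 18.9, 25.6, 25.9 and 26.1 CPM in aged WT hearts. In young KO hearts they were 8.83, 12.2, 13.2 and 10.6 CPM and in aged KO hearts 21.2, 27.8, 36.3 and 36.1 CPM. No aged heart overlapped a young one of its genotype. The log2 change with age was 1.0 ± 0.16 in WT (adjusted p = 0.000196) and 1.44 ± 0.16 in KO hearts (adjusted p = 2.06e-05), and their difference, 0.44 ± 0.23 with a 95% interval of -0.06 to 0.93, did not pass (adjusted p = 0.467). Pfkfb2 was at 186.8, 196.6, 167.5 and 209 CPM in young WT hearts and at 194.7, 191.6, 183.9 and 183.7 CPM in aged ones. KO hearts had 220.3, 175.8, 224.6 and 188.8 CPM when young and 188, 199.1, 143.2 and 150.8 CPM when aged. Its ages overlapped in both genotypes, with log2 changes of -0.01 ± 0.11 in WT and -0.25 ± 0.11 in KO hearts (adjusted p = 0.954 and 0.172).

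The make-up of these transcripts differed between ages. Of the summed FPKM of Pfkfb1, Pfkfb2 and Pfkfb3, a grouping chosen after their values were seen, Pfkfb2 held 74.4% to 78.0% in young WT and 72.9% to 81.4% in young KO hearts, against 56.4% to 64.7% in aged WT and 48.7% to 66.3% in aged KO hearts. Pfkfb1 made up 14.6% to 17.9% in young WT, 20.8% to 28.5% in aged WT, 10.1% to 16% in young KO and 25.0% to 41.9% in aged KO hearts. Pfkfb3 made up 7.41% to 7.94% in young WT, 13.2% to 18.3% in aged WT, 7.80% to 11.1% in young KO and 8.52% to 12.7% in aged KO hearts. The FPKM shares of Pfkfb2 and Pfkfb1 thus separated the ages in both genotypes, while that of Pfkfb3 separated them in WT hearts and overlapped in KO hearts. The size of the shares depended on the scaling by gene length. On CPM, Pfkfb1 held 5.56%, 9.56%, 4.84% and 13.8% as means of young WT, aged WT, young KO and then aged KO hearts. Pfkfb2 held 87.2%, 74.7%, 86.7% and 75.4% on CPM in the same order.

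**Figure D3:**
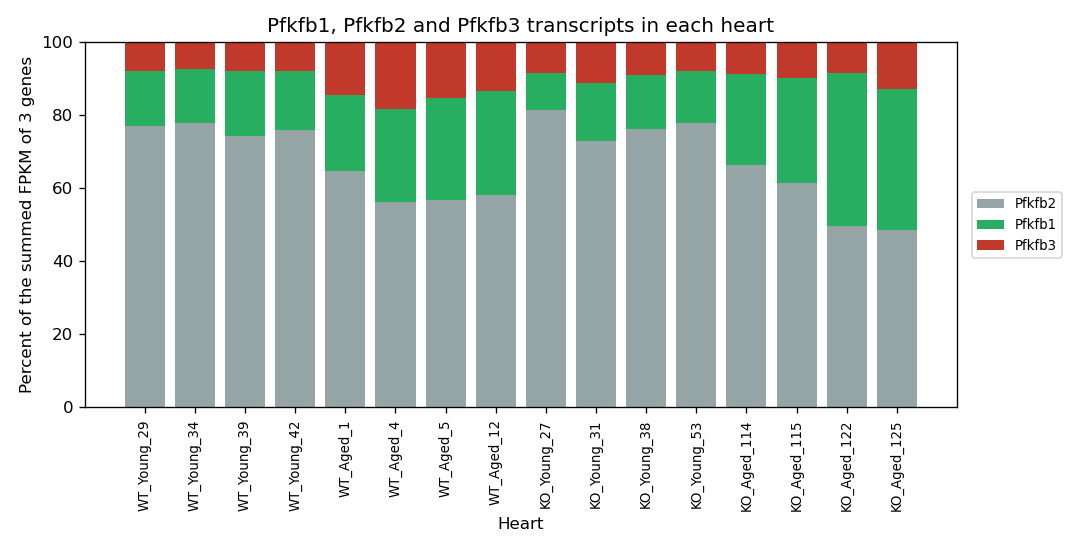
Share of the summed FPKM of Pfkfb1, Pfkfb2 and Pfkfb3 (y axis, percent) in each of the 16 hearts (x axis). The Pfkfb2 part is 72.9% or more in every young heart and 66.3% or less in every aged heart, and the Pfkfb3 part is 13.2% or more in each aged WT heart.

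Fbp2, the muscle fructose-bisphosphatase that catalyses the reverse of the phosphofructokinase step, was measured at 29.4, 30.0, 33.5 and 27 CPM in young WT and at 23.2, 35.4, 31.5 and 31.9 CPM in aged WT hearts, which overlapped. In young KO hearts it was at 27.3, 28.3, 28.6 and 24.7 CPM and in aged KO hearts at 29.4, 40.1, 38.8 and 48.3 CPM, with no overlap. It rose with age in KO hearts by 0.52 ± 0.13 (adjusted p = 0.0176), a call lost without KO_Young_53 (adjusted p = 0.0678) or KO_Aged_125 (0.0767). In WT hearts the log2 change was 0.02 ± 0.13, and the difference between the genotypes, 0.50 ± 0.19, did not pass (adjusted p = 0.277).

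Of the glucose transporters, Slc2a1 (GLUT1, the basal transporter) rose with age in WT hearts and Slc2a4 (GLUT4) did not pass in any comparison. Slc2a1 stood at 17.1, 19.3, 17.8 and 18.3 CPM in young WT hearts and at 23.6, 27.3, 23.7 and 27.4 CPM in aged WT hearts, without overlap, a log2 change of 0.49 ± 0.10 (adjusted p = 0.000937). In KO hearts it stood at 18.8, 20.4, 20.6 and 22.4 CPM when young and at 28.4, 23.5, 22.4 and 21.7 CPM when aged, a log2 change of 0.22 ± 0.10 (adjusted p = 0.169). The difference between the genotypes was -0.27 ± 0.14 (adjusted p = 0.439). Of the 7 tested erythroid markers 7 rose with age in WT hearts, where 11.8% of all tested genes rose, with a median log2 change of 1.589. In KO hearts 0 were called by edgeR or DESeq2, with 2 at an unadjusted p under 0.05. All 7 KO log2 changes were above 0, with a median of 0.525. The difference between the genotypes was called for 0 of the 7, with 7 at an unadjusted edgeR p under 0.05. The part of these markers in the Slc2a1 result was not tested. Slc2a4 was at 445, 505, 544 and 546 CPM in young WT hearts and at 383, 506, 558 and 496 CPM in aged ones, and at 510.3, 507, 551 and 569 CPM in young KO hearts and 496, 466, 500.1 and 515 CPM in aged ones. All 4 groups overlapped, and the 95% interval of its log2 change with age was -0.28 to 0.14 in WT and -0.33 to 0.10 in KO hearts. Slc2a1 accounted for 3.43% to 3.96% of the FPKM of both transporters in young WT hearts (mean 3.69%) and 4.39% to 5.96% in aged ones (mean 5.38%). In KO hearts this share was 3.83% to 4.06% when young (mean 3.96%) and 4.34% to 5.84% when aged (mean 4.98%). By this share every aged heart of either genotype lay above every young one. The FPKM of Slc2a1 itself in KO hearts was 8.15 to 9.16 when young and 9.44 to 12.68 when aged, without overlap.

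Hexokinases trap glucose in the cell as glucose 6-phosphate. Hk1 was highest in young WT hearts, at 255, 277, 302 and 273 CPM, and all other groups lay below: 152, 200.2, 243 and 198 CPM in aged WT, 191, 191, 209.9 and 209.8 CPM in young KO and 211, 176, 194 and 182 CPM in aged KO hearts. It fell with age in WT hearts by 0.48 ± 0.11 on the log2 scale (adjusted p = 0.00292), and its log2 change in KO hearts was -0.07 ± 0.11 (adjusted p = 0.761). The difference between these, 0.41 ± 0.15, did not pass (adjusted p = 0.27). Young KO hearts did not overlap young WT hearts, with a log2 change of -0.47 ± 0.11 that missed the threshold (edgeR adjusted p = 0.0749) and passed with DESeq2 (adjusted p = 0.00723). Hk2, the insulin-regulated form, was at 380.5, 481, 535 and 483 CPM in young WT hearts and at 331, 371, 451 and 407 CPM in aged ones, and at 476, 405, 538 and 483 CPM in young KO hearts and 424, 382, 408 and 359.7 CPM in aged ones. Its ages overlapped in both genotypes, with a log2 change of -0.27 ± 0.11 in each (adjusted p = 0.0887 and 0.149).

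In the upper part of glycolysis 1 of 6 tested genes (16.7%) fell with age in WT hearts, where 9.93% of all tested genes fell and 21.7% changed. In KO hearts 0 of 6 were called by edgeR, with 1 at an unadjusted p under 0.05, and DESeq2 called 1, Pfkm. Pfkm, the muscle phosphofructokinase, stood at 1315, 1489, 1665 and 1517 CPM in young WT and at 941, 1257, 1389 and 1220.1 CPM in aged WT hearts, where the highest aged heart overlapped the lowest young one. In KO hearts it stood at 1585, 1544, 1622 and 1692 CPM when young and at 1289, 1217, 1300.5 and 1352 CPM when aged, without overlap. The log2 change with age was -0.32 ± 0.10 in WT (adjusted p = 0.0259) and -0.32 ± 0.10 in KO hearts, where it missed the threshold (adjusted p = 0.0514). The WT call was lost without WT_Young_34 (adjusted p = 0.0668), WT_Young_39 (0.0957), WT_Young_42 (0.0768) or WT_Aged_1 (0.0997). Pfkm made up 87.8% to 91.2% of the FPKM of the 3 phosphofructokinase genes as group means, and the liver form Pfkl and platelet form Pfkp did not pass in any comparison. Pfkl was at 156 ± 11.6, 135 ± 11.9, 139 ± 13.7 and 153 ± 8.01 CPM in young WT, aged WT, young KO and then aged KO hearts, and Pfkp at 80.5 ± 5.64, 77.8 ± 17.6, 63.3 ± 2.20 and 61.9 ± 8.33 CPM. For Pfkl the WT ages did not overlap (log2 change -0.21 ± 0.09, adjusted p = 0.0949). For Pfkp young KO hearts lay below all young WT hearts, with a log2 change of -0.35 ± 0.12 (edgeR adjusted p = 0.303). That difference passed in a fit of the young libraries alone (0.0251).

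The aldolase Aldoa, the most abundant gene here, was at 2735, 2484, 2698 and 2626 CPM in young WT hearts and at 2994, 3121, 3113 and 2699 CPM in aged ones, and at 2636, 3043, 2714 and 3165 CPM in young KO hearts and 2954, 2654, 2757 and 3192 CPM in aged ones. Its log2 change in WT ageing was 0.18 ± 0.08 (adjusted p = 0.13); scaling by library size alone gave 0.25 (adjusted p = 0.0235). The isomerases Gpi1 and Tpi1 had log2 changes between -0.13 and 0.09 with age and none passed.

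In the lower part of glycolysis 2 of 6 genes (33.3%) fell with age in each genotype, Eno3 and Pgam1 in WT and Eno3 and Pgam2 in KO hearts, where 9.93% and 2.60% of all tested genes fell. DESeq2 also called Pgam2 in WT hearts. Eno3, the muscle enolase, and Pgam2, the muscle phosphoglycerate mutase, are shown with their promoter windows because they were the 2 called genes of this part in KO ageing. RefSeq lists 1 window for each in GRCm38.p6, at chr11:70656926-70657225 (plus strand) for Eno3 and chr11:5803747-5804046 (minus strand) for Pgam2. Capitals mark the E-box letters CANNTG, which read the same pattern on both strands.
Eno3: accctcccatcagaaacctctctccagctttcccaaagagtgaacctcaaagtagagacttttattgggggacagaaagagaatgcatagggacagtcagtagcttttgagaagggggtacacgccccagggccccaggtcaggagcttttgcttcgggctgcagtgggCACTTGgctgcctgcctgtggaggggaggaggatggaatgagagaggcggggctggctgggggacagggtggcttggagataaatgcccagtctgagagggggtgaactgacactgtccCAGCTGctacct
Pgam2: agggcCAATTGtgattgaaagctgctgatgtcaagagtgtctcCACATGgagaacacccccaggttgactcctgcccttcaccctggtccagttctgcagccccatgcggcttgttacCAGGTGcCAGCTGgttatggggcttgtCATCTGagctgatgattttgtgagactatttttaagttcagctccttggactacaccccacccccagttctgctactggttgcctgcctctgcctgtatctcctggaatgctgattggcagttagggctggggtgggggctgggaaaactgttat
E-box letters occurred in 39 of the 52 windows (75.0%) and in 72.3% of all windows of this length, so the match is common.

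Eno3 was at 1603, 1470.1, 1610.4 and 1463 CPM in young WT and at 1206, 1217, 1339.8 and 1111 CPM in aged WT hearts. In KO hearts it was at 1554, 1879.8, 1613 and 1776 CPM when young and at 1196, 1214, 1264 and 1266 CPM when aged. Ages did not overlap in either genotype, and Eno3 fell with age by 0.33 ± 0.08 on the log2 scale in WT (adjusted p = 0.00457) and by 0.47 ± 0.08 in KO hearts (adjusted p = 0.001). Eno1, the broadly expressed enolase, had log2 changes of 0.20 ± 0.08 in WT and 0.11 ± 0.08 in KO hearts that did not pass (adjusted p = 0.0984 and 0.495). Its share of the FPKM of both enolases, a ratio in which library scaling cancels, was 8.04% to 8.60% in young WT and 11.0% to 12.3% in aged WT hearts. In KO hearts that share was 7.53% to 8.01% when young and 10.8% to 11.8% when aged. Every aged heart of either genotype thus lay above every young heart of either genotype.

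Pgam2 was at 571, 491, 492 and 480.2 CPM in young WT hearts and at 422, 439.8, 477 and 390.2 CPM in aged ones, and at 515, 571, 493 and 631 CPM in young KO hearts and 434, 388, 389.5 and 435 CPM in aged ones. It fell with age by 0.42 ± 0.09 on the log2 scale in KO hearts (adjusted p = 0.006). In WT hearts, where the ages did not overlap either, the log2 change was -0.24 ± 0.09. This WT change missed the threshold (edgeR adjusted p = 0.0694) and passed with DESeq2 (adjusted p = 0.0493). Pgam1, the broadly expressed form, was at 136, 106, 127 and 121.6 CPM in young WT and at 118, 84.0, 71.2 and 87.9 CPM in aged WT hearts, with WT_Aged_1 inside the young range. In KO hearts it was at 85.9, 81.8, 85.3 and 110.5 CPM when young and at 93.0, 86.6, 110.0 and 83.0 CPM when aged. It fell with age in WT hearts by 0.44 ± 0.13 on the log2 scale (adjusted p = 0.0228), and the KO value was 0.04 ± 0.13 (adjusted p = 0.913); the difference, 0.48 ± 0.19, did not pass (adjusted p = 0.308). The WT call was lost without WT_Young_29 (adjusted p = 0.0702), WT_Young_39 (0.0578), WT_Young_42 (0.0507), WT_Aged_4 (0.0671) or WT_Aged_5 (0.0669). In young hearts the Pgam1 log2 difference (KO minus WT) was -0.43 ± 0.13, which missed the threshold (edgeR adjusted p = 0.214). It passed in a fit of the young libraries alone (0.0462). Pgk1 and Pkm had log2 changes between -0.11 and 0.08 with age and none passed. The glyceraldehyde phosphate dehydrogenase Gapdh, not one of the 34 genes, was at 4685 ± 200.1, 5058 ± 407, 5137 ± 471 and 4699 ± 441 CPM in young WT, aged WT, young KO and then aged KO hearts and was not called in any comparison.

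Lactate dehydrogenase interconverts pyruvate and lactate. Ldhb, the heart form, was at 1985, 1874, 2107 and 1987 CPM in young WT hearts and at 2016, 2044, 2085 and 1896 CPM in aged ones, and at 2004, 2229, 2069.5 and 2414 CPM in young KO hearts and 1895, 1769, 1811 and 2106 CPM in aged ones. The log2 change with age was 0.02 ± 0.08 in WT and -0.20 ± 0.08 in KO hearts (adjusted p = 0.91 and 0.134). Ldha, the muscle form and a textbook target of the hypoxia-inducible factor, had log2 changes of 0.04 ± 0.08 and 0.13 ± 0.08 (adjusted p = 0.761 and 0.34), with 95% intervals of -0.13 to 0.20 and -0.04 to 0.29. Its window at the first of 2 listed starts, chr7:46845554-46845853 on the plus strand (GRCm38.p6), is shown beside Pfkfb3 as the window of these genes with the most ACGTG matches, 5 counted over both strands, in a gene that was not called.
Ldha start 1: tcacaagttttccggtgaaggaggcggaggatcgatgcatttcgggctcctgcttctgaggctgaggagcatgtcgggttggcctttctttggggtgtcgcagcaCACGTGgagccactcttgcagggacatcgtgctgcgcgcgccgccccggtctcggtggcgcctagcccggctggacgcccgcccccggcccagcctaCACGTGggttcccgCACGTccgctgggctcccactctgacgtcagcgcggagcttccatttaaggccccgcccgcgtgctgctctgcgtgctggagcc
Ldha held 21.7%, 22.0%, 20.0% and 23.9% of the FPKM of both genes as means of young WT, aged WT, young KO and then aged KO hearts.

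The pyruvate dehydrogenase complex commits pyruvate to oxidation. Dlat, its acetyltransferase subunit, was at 571, 662, 722 and 624 CPM in young WT and at 529, 502, 472 and 553 CPM in aged WT hearts, without overlap, and fell by 0.33 ± 0.09 on the log2 scale (adjusted p = 0.0148); the call was lost without WT_Young_39 (adjusted p = 0.0635). In KO hearts it was at 582, 545, 616 and 580.2 CPM when young and at 529.7, 483, 643 and 542 CPM when aged, a log2 change of -0.08 ± 0.09 (adjusted p = 0.668). The difference, 0.25 ± 0.13, did not pass (adjusted p = 0.47). Pdhb, a subunit of the same complex, was at 925.4, 916.6, 942 and 884.9 CPM in young WT hearts and at 851.3, 777.1, 837 and 775.1 CPM in aged ones. KO hearts had 892.7, 995, 913.7 and 946.6 CPM when young and 785.1, 750, 856.3 and 865.8 CPM when aged, and the ages did not overlap in either genotype. Its log2 changes of -0.18 ± 0.07 and -0.20 ± 0.07 missed the threshold (edgeR adjusted p = 0.0797 and 0.0952) and passed with DESeq2 (adjusted p = 0.0207 and 0.0131). Pdha1, another subunit, had log2 changes of -0.12 ± 0.09 and -0.11 ± 0.09. Of the kinases that inhibit the complex, Pdk1 had log2 changes of 0.08 ± 0.10 in each genotype, with group means of 261 to 282 CPM. Pdk4, a fasting- and fat-responsive kinase that is not one of the 34 genes, was at 77.8, 89.5, 121 and 76.3 CPM in young WT and at 213, 550.2, 183 and 299 CPM in aged WT hearts. In KO hearts Pdk4 was at 148, 141, 173 and 74.7 CPM when young and at 257, 339, 363 and 622 CPM when aged. It rose with age by 1.77 ± 0.39 in WT (adjusted p = 0.00569) and by 1.56 ± 0.38 in KO hearts (adjusted p = 0.0256), with no overlap of ages in either genotype.

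**Figure D4:**
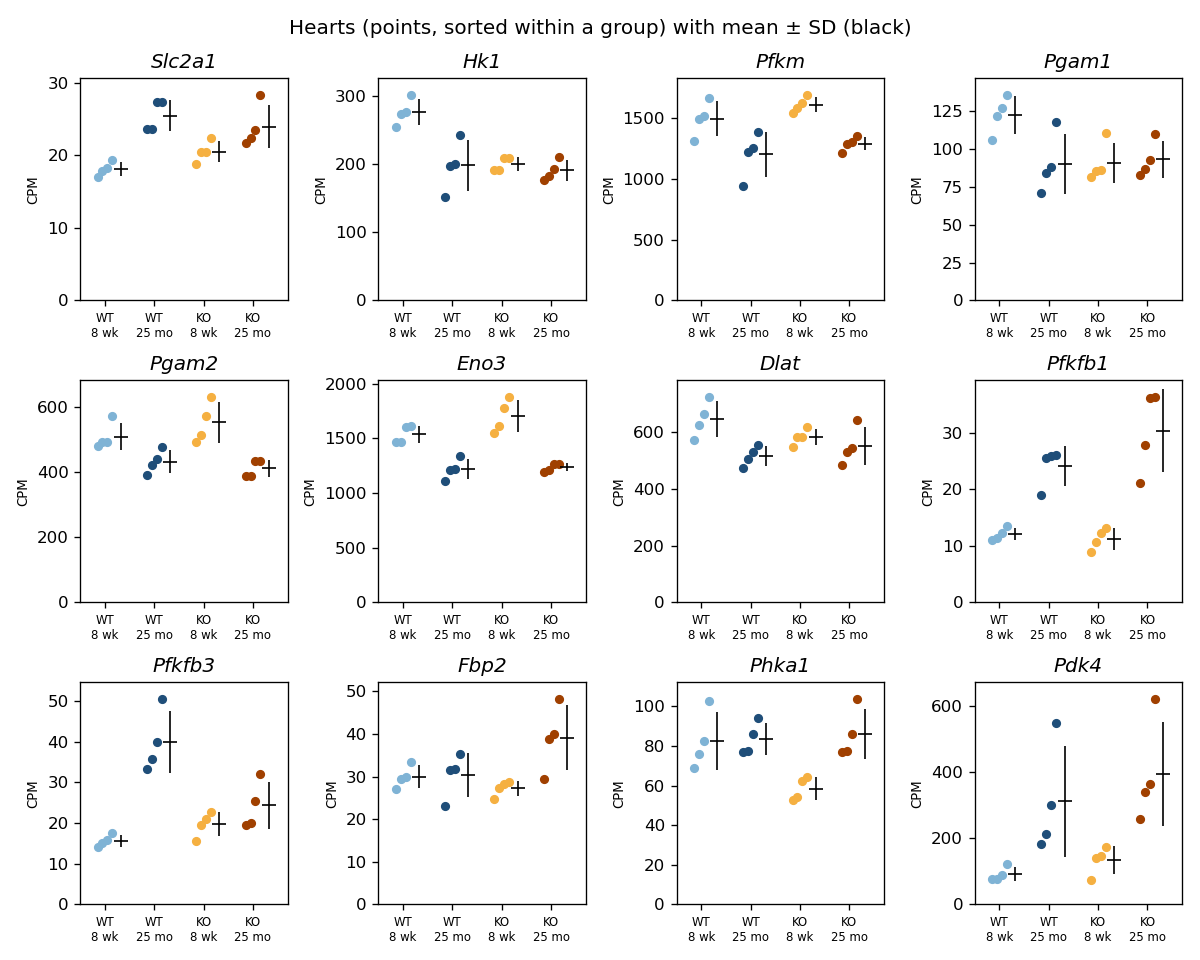
CPM (y axis, from 0) in each heart of the 4 groups (x axis) for the 11 genes called in any comparison and for Pdk4, with the mean ± SD in black. Aged WT hearts of Pfkfb3 (33.4 to 50.5 CPM) lie above all other hearts, and Pdk4 and Pfkfb1 are high in the aged hearts of both genotypes.

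Of the 7 glycogen genes 0 were called with age in WT hearts by edgeR, with 2 at an unadjusted p under 0.05 and 2 called by DESeq2 (Gys1 and Pygm), and 1 (14.3%) rose in KO hearts, where 21.7% of all tested genes changed in WT and 7.63% in KO ageing. Phka1, the regulatory alpha subunit of muscle phosphorylase kinase, stood at 68.8, 76.1, 103 and 82.5 CPM in young WT hearts and at 94.0, 76.7, 77.6 and 85.8 CPM in aged ones, and at 52.9, 54.0, 64.1 and 62.5 CPM in young KO hearts and 86.1, 77.1, 104 and 77.3 CPM in aged ones. Young KO hearts lay below every other heart. Phka1 rose with age in KO hearts by 0.56 ± 0.12 (adjusted p = 0.00592), and the WT value was 0.02 ± 0.12. Neither the difference between these, 0.54 ± 0.17 (adjusted p = 0.165), nor the difference between young KO and young WT hearts, -0.50 ± 0.12 (adjusted p = 0.0877), passed. Pygm, the muscle glycogen phosphorylase and the most abundant of the group, was at 1347, 1612, 1759 and 1554 CPM in young WT and at 956, 1419, 1378 and 1314 CPM in aged WT hearts. In KO hearts it was at 1559, 1574, 1734 and 1762 CPM when young and at 1357, 1153, 1374 and 1366 CPM when aged. Its log2 changes with age, -0.31 ± 0.11 in WT and -0.34 ± 0.11 in KO hearts, missed the threshold (edgeR adjusted p = 0.051 and 0.0689) and passed with DESeq2 (adjusted p = 0.0374 and 0.0382). Gys1, glycogen synthase, was at 171 ± 25.6, 132 ± 26.1, 148 ± 16.8 and 147 ± 14.2 CPM in young WT, aged WT, young KO and then aged KO hearts, with a WT log2 change of -0.37 ± 0.13 (adjusted p = 0.0578). The branching enzyme Gbe1, the UDP-glucose maker Ugp2, the brain-type phosphorylase Pygb and the kinase subunit Phkg1 had log2 changes with age between -0.14 and 0.35, and none passed. Ugp2 was at 786 CPM in WT_Aged_1 and at 444, 417 and 574 CPM in the other aged WT hearts.

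Between genotypes in young hearts 0 of the 33 genes were called by edgeR, where 0.269% of all tested genes were; 5 had an unadjusted p under 0.05, and DESeq2 called 2, Hk1 and Phka1. In aged hearts 5 of the 33 had an unadjusted p under 0.05, and edgeR and DESeq2 each called 1, Pfkfb3. The median absolute log2 difference of the 33 genes was 0.058 in aged hearts, against 0.103 over all tested genes, and 0.113 against 0.114 in young hearts. All tested genes were not matched to the 33 on transcript level, so these medians do not tell a small genotype effect from lower noise.

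Beyond the 34 genes, 92 tested genes of the same pathways, from lists of transporters, enzymes, regulators and glycogen proteins, were also counted. In WT ageing 12 rose and 7 fell (20.7%), and in KO ageing 7 rose and 1 fell (8.70%), both near the background shares. Hk3, a hexokinase of white blood cells, rose in WT hearts by 1.58 ± 0.27 from 0.948 ± 0.120 to 2.86 ± 0.520 CPM (adjusted p = 0.000278), beside the rise of the macrophage markers, whose part was not tested. Ppp1r3c, which targets protein phosphatase to glycogen, fell by 0.64 ± 0.14 in WT and by 0.76 ± 0.14 on the log2 scale in KO hearts (adjusted p = 0.00238 and 0.00184). The liver phosphorylase Pygl rose by 0.75 ± 0.16 (adjusted p = 0.00202) and the arrestin-domain gene Arrdc4 by 0.51 ± 0.12 (adjusted p = 0.00381) in WT hearts. The KO changes of Hk3, Pygl and Arrdc4 were 0.47 ± 0.26, 0.29 ± 0.16 and -0.01 ± 0.12 (adjusted p = 0.307, 0.311 and 0.986). Their differences between the genotypes did not pass (adjusted p = 0.224, 0.422 and 0.19). The monocarboxylate transporter Slc16a7 rose by 1.03 ± 0.16 in KO and by 0.54 ± 0.16 in WT hearts (adjusted p = 0.000387 and 0.0169), and the neuronal-type glucose transporter Slc2a3 by 0.76 ± 0.20 and 0.66 ± 0.19 (adjusted p = 0.0246 and 0.0201). Egln3, an oxygen-sensing prolyl hydroxylase, was at 84.5 ± 2.78 CPM in young WT, 103.7 ± 11.3 in aged WT, 51.3 ± 8.37 in young KO and 86.8 ± 10.9 in aged KO hearts (SD, n = 4). It was lower in young KO than in young WT hearts by a log2 change of -0.72 ± 0.11 (adjusted p = 0.00662), and rose with age in KO hearts by 0.76 ± 0.11 (adjusted p = 0.000226). In aged hearts 0 of the 92 genes differed between genotypes by edgeR, with 8 at an unadjusted p under 0.05, and DESeq2 called 1, Ppargc1b. Txnip, an inhibitor of glucose uptake, ranged from 408.5 to 779.5 CPM over all hearts and was not called in any comparison.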

How the data were processed

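RNA from 16 mouse hearts, 4 per group, was sequenced in bulk. The authors deposited 2 tables: expected counts for each gene, some of them fractional, and FPKM values, which are scaled to gene length and library size. The submitters' processing notes name HISAT, Bowtie2 and GRCm39, with no version or role, and for the counter nothing is given in the sources used here. Counts become fractional where a counter splits reads between similar genes. Eno3 and Pdha1 had them in 16 hearts, Pfkp, Gys1 and Phkg1 in 15, Eno1 in 2 and Gpi1 in 1, and rounding moved a count by at most 0.226%.

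Rounded counts of all 16 libraries entered 1 fit with 4 groups in edgeR 4.0.16 (R 4.3.3): filterByExpr, TMM scaling, robust quasi-likelihood F tests with 12 residual degrees of freedom, and Benjamini-Hochberg adjustment over 13373 genes. An adjusted p under 0.05 makes a gene "called", and a called gene "rose" or "fell". Fold changes are on the log2 scale with SE, and levels are TMM-scaled CPM. The interaction subtracts the WT ageing change from the KO one. Every pair of hearts within a group differed by more than sampling noise (chi-square per degree of freedom of 3.67 or more). The first principal component held 40.7% of the variance.

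The genes and all lists were chosen with earlier results of these data known, so no p is adjusted over a list alone. Every one of the 34 genes could be named. Values per heart are given for genes called in any comparison and for the most abundant gene of each role. Of the 99 other pathway genes, 97 were in the files, and up to 6 called ones per comparison were named in order of adjusted p, with Gapdh, Pdk4 and Txnip always given. Some called genes of this list are not reported here. Isoform shares use FPKM and carry no test. For young WT hearts the title prefix differs from the genotype label, and the label was used. Promoter windows come from a RefSeq table of GRCm38.p6 and were matched by symbol. Alternatives were DESeq2 1.42.0 (size factors and its own Wald test), library size scaling, no count filter, only the libraries compared, limma 3.58.1 on log2(FPKM + 1) and log2(FPKM + 0.1), and leaving out each heart. The fit was also run on simulated counts with changes placed in aged WT hearts alone. The genotype comparisons and the interaction were not scored there.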

Additional observations from a re-analysis of the deposited data

Results flagged for a closer look

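Within groups, 8 of 136 gene and group combinations held a heart set apart from the other 3 by more than 0.829 of the group's range, and chance alone gives about 1 in 20 such groups. Pfkl was highest in WT_Young_39 at 173 CPM (others 148.2 to 151.1). Pgam2 was highest in WT_Young_29 at 571.4 CPM (480.2 to 492.5) and Pdk1 lowest in the same heart at 216.6 CPM (278.4 to 285.3). Pgam1 was highest in KO_Young_53 at 110.5 CPM (81.75 to 85.91), as was Pkm at 1667.4 CPM (1523.1 to 1545.5). Pkm was lowest in KO_Aged_115 at 1388 CPM (1515.5 to 1532.8), as was Pygm at 1153.3 CPM (1357.4 to 1373.9). Pfkfb1 was lowest of the aged WT hearts in WT_Aged_1, at 18.9 CPM (25.60 to 26.07), which was still above all young WT hearts.

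The ageing change of Pfkfb3 differed between genotypes by a tested log2 value of -1.04 ± 0.22 (KO minus WT; edgeR adjusted p = 0.0438), a call lost in 16 of 24 other settings, with adjusted p up to 0.111.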

How the results depend on the processing

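No paired analysis was possible because the groups share no animal number. Of 15 calls on these genes, 9 held in each of 25 settings (with age in WT: Slc2a1, Hk1, Eno3, Pfkfb1 and Pfkfb3; in KO: Pgam2, Eno3, Pfkfb1 and Phka1), 6 were lost in at least 1 setting (Pfkm in 8, Pgam1 in 10, Dlat in 4, Fbp2 in 2, Pfkfb3 between aged genotypes in 8 and its interaction in 16 of 24) and 0 reversed; 14 uncalled comparisons were called in some setting. The cause of these losses was not tested. DESeq2 called 12 of these genes in WT ageing, 8 in KO ageing and 2 between young genotypes, and 3127, 1230, 261, 149 and 217 of all genes in WT ageing, in KO ageing, between aged genotypes, between young genotypes and for the interaction. With only the libraries compared, 0 of these genes were called between aged and 4 between young genotypes, and 17 and 135 of all genes; that setting was not run for the interaction, which needs all groups. On log2(FPKM + 0.1), 0 of these genes were called between aged genotypes and 0 for the interaction, and 59, 9 and 39 of all genes between aged genotypes, between young genotypes and for the interaction. On log2(FPKM + 1), 0 of these genes were called for the interaction, and 20 of all genes between young genotypes; without a filter on FPKM the genes called were 0 between aged genotypes and 0 for the interaction, and 8 and 20 of all genes between young genotypes and for the interaction. Without a filter on counts 0 were called for the interaction. In WT ageing the split of these genes was 3 up and 5 down, 5 and 2 on either FPKM scale, 5 and 4 with library size scaling and 3 and 9 with DESeq2 (3 and 5 in KO ageing, against 3 and 2), and that of all called genes moved from 54.3% up to 71.9% on log2(FPKM + 1). Leaving out each heart gave 5 (without WT_Young_39) to 11 calls on these genes in WT ageing, 4 to 7 in KO ageing and 0 to 1 in the other comparisons. Over all genes it gave 2111 to 2951, 644 to 1435, 31 to 251, 4 to 84 and 25 to 171 calls for WT ageing, KO ageing, aged genotypes, young genotypes and the interaction. A fit without the robust option, chosen after seeing the data, kept each count within 1.5 times.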

Other observations

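Single hearts stood at the end of their group for many of the 33 tested genes at once. KO_Aged_115 had the lowest CPM of the aged KO hearts in 22 of 33 genes (66.7%, against 26.7% of all tested genes) and the highest in 1. WT_Young_29 was lowest of its group in 18 genes (54.5% against 31.2%) and WT_Young_39 highest in 19 (57.6% against 28.7%). KO_Young_53 was highest of its group in 15 genes (45.5% against 27.1%). WT_Aged_1, which had the highest macrophage and erythroid marker sums of all hearts (1228.4 and 2221.4 CPM), was lowest of its group in 15 genes and highest in 11, against 34.5% and 34% of all tested genes.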
